A study of Mus musculus with 18 samples.

Results

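The effect of ADAM10 deficiency was compared between CD4-CD8- cDC2 and CD8+ cDC1 of the mouse spleen, as the difference between 2 knockout effects. The comparison used 12 of the 18 libraries of the study, chosen by their sample labels. They were KO CD4-CD8-, WT CD4-CD8-, KO CD8+ and WT CD8+ cells, with 3 libraries in each group, where KO stands for ADAM10 KO. All were spleen cells of C57BL/6 mice, and the labels give no age, sex or treatment. The cells were sorted alive by CD11c and MHC class II and then by CD8 and CD4, after magnetic enrichment of CD11c+ cells, per the labels' protocols. The labels do not say how ADAM10 was removed or in which cells. For every gene, the KO minus WT log2 fold change in CD8+ cells was subtracted from that in CD4-CD8- cells, so that a positive difference means a higher KO effect in CD4-CD8- cells.

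Conventional dendritic cells (cDC) take up antigen and present it to T cells. The cDC1 lineage depends on the transcription factors IRF8 and BATF3 and cross-presents antigen to CD8 T cells, while cDC2 depend more on IRF4 and Notch2 and are mixed, with ESAM-high cells that need Notch2 and ESAM-low cells with monocyte-like genes. ADAM10 is a membrane protease that cuts ligand-bound Notch receptors, the step that lets gamma-secretase release the Notch intracellular domain, and it also sheds other surface proteins. Both cDC1 and cDC2 of the spleen are known to receive Notch2 signals.

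Total estimated counts of the 12 libraries ran from 12358884 to 17106179, and 13381 genes were tested. The labels number 3 samples per group but do not state that each came from its own animal. The p-values therefore rest on library-to-library spread alone, some of which may be technical. Levels are given as CPM, estimated counts scaled to a common library size, with TMM factors, in the order of the libraries numbered 1 to 3. Fold changes are log2 values from edgeR's quasi-likelihood fit. Each standard error beside them was back-calculated as the absolute fold change over the square root of the test's F statistic. It is approximate, and the errors of single effects need not combine to that of their difference. A gene was called at a Benjamini-Hochberg adjusted p under 0.05 over all genes tested. "Rose" and "fell" describe called changes in KO relative to WT cells. Of the markers of the sorted cells, Cd8a and Xcr1 are given here, and both were higher in CD8+ than in CD4-CD8- cells. Markers of other cell types are given further below. Cd8a, the CD8 alpha chain, averaged 4.95 ± 0.872 CPM in KO CD4-CD8-, 5.9 ± 0.516 in WT CD4-CD8-, 588 ± 73.9 in KO CD8+ and 1060.4 ± 69.8 in WT CD8+ cells (SD, n = 3 each). Xcr1, the chemokine receptor that marks cDC1, averaged 92.8 ± 35.7, 39.3 ± 1.25, 1011 ± 54.6 and 746 ± 147 CPM in the same order of groups (SD, n = 3 each).

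Adam10 fell to a like extent in both populations. KO CD4-CD8- libraries held 47.4, 41.7 and 44.6 CPM and WT CD4-CD8- libraries 90.9, 88.3 and 138 CPM, and KO CD8+ libraries held 28.7, 31.03 and 36.4 CPM against 56.97, 58.3 and 98.97 CPM in WT CD8+ libraries. The groups did not overlap in either population, and WT library 3 was the highest in both. The difference between the effects was -0.09 ± 0.31 on the log2 scale (95% interval -0.76 to 0.57, adjusted p 0.899). The gene lies on chromosome 9 from 70678997 to 70780229 in GRCm38. The reads were assigned to whole transcripts, so these values do not show which part of the gene was lost.

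Of 13381 genes, 1761 (13.2%) had a KO effect that differed between the populations. The effect was higher in CD4-CD8- cells for 1102 genes (8.24%) and lower for 659 (4.92%), with 543 and 276 of them differing at least 2-fold. The median difference over all genes was 0.03. KO effects within CD4-CD8- cells were called for 3471 genes (25.9%, with 14.6% higher and 11.3% lower in KO). Within CD8+ cells they were called for 2099 (15.7%, with 7.01% higher and 8.68% lower in KO). Among the 1761 genes, 838 had a called effect only in CD4-CD8- cells, of which 481 were higher and 357 lower in KO. A further 449 had a called effect only in CD8+ cells, of which 134 were higher and 315 lower in KO. For 249 genes (1.86% of those tested) both effects were called with opposite signs, and for 188 of these the KO level was higher in CD4-CD8- and lower in CD8+ cells. Another 54 genes rose in both populations and 67 fell in both by unequal amounts, and 104 passed in neither alone. The split of called genes into higher and lower moved with the scaling. The share that was higher was 62.6% here, 56.4% with upper-quartile scaling (993 against 768), 48.1% with library totals alone (861 against 930) and 43.1% on log2(TPM + 1) values (503 against 664).

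**Figure D1:**
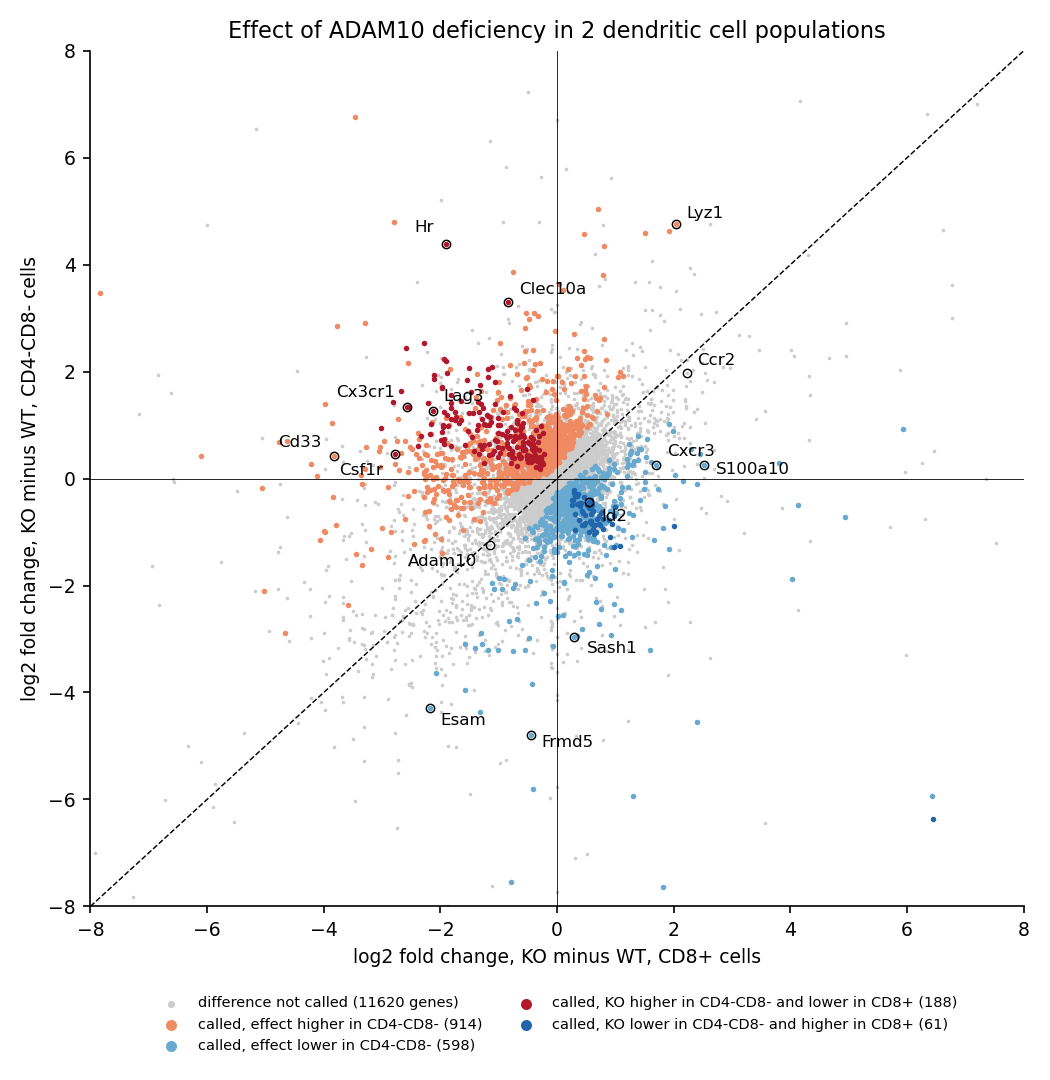
Log2 fold changes (KO minus WT) of each tested gene in CD8+ cells (horizontal) and CD4-CD8- cells (vertical); coloured points are genes called for the difference, dark points those with called effects of opposite sign, and the dashed line marks equal effects. The 188 dark red genes lie in the upper left and the 61 dark blue genes in the lower right, Adam10 and Ccr2 lie near the line, and 13 genes fall outside the axes.

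Several Notch target genes fell in both populations, and no difference between the populations passed the threshold. Of 12 listed targets 9 were tested. In CD4-CD8- cells 6 fell and 1 rose (11.3% and 14.6% of all genes did). In CD8+ cells 4 fell and 1 rose (8.68% and 7.01% of all genes did). For the difference 0 of 9 were called in either direction (13.2% of all genes were). Hes1, a repressor switched on directly by Notch, had 1.305, 2.302 and 3.22 CPM in KO CD4-CD8- libraries against 27.6, 23.3 and 30.5 in WT. In CD8+ cells Hes1 had 1.37, 2.16 and 1.62 CPM in KO libraries against 19.1, 14.9 and 20.9 in WT. The groups were far apart within each population, and the difference of effects was -0.19 ± 0.59 (95% interval -1.45 to 1.07, adjusted p 0.887). Dtx1, a Notch-induced ubiquitin ligase, had 5.93, 3.76 and 14.5 CPM in KO CD4-CD8- libraries against 249, 259 and 265 in WT. In CD8+ cells Dtx1 had 0.848, 0.0697 and 0.5196 CPM in KO libraries against 5.37, 7.73 and 7.86 in WT. Its KO effects were -5.01 ± 0.55 and -3.82 ± 0.92 in the 2 populations, with a difference of -1.20 ± 1.38 whose 95% interval ran from -4.11 to 1.72 (adjusted p 0.659). On log2(TPM + 1) values the Dtx1 difference was called, at -3.19 (adjusted p 0.00224), and at -2.98 with TMM scaling of those values. Myc, a growth-promoting transcription factor and Notch target, was the gene that rose in both populations, and its difference of -0.50 ± 0.17 (adjusted p 0.0611) was called lower in 10 of 23 alternatives.

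Among 28 tested Notch receptors, ligands and modifiers, 3 effects were higher and 1 was lower in CD4-CD8- cells (median 0.11). Over all genes 8.24% were higher and 4.92% lower. The lower one, the ligand Dll1 (-2.66, adjusted p 0.0455), was called in 11 of 22 alternatives, and leaving out a library ended its call except for WT CD4-CD8- library 3, KO CD4-CD8- library 1 and WT CD8+ library 2. Of the higher ones, Aph1b, a gamma-secretase subunit (0.55, adjusted p 0.0456), was called in 8 of 23, and leaving out a library ended its call except for WT CD4-CD8- library 2, WT CD8+ library 2 and KO CD8+ library 3. With no filter on low counts 1 effect was higher and 0 were lower. Notch2, the receptor that splenic cDC rely on, rose in both populations, with a difference of -0.28 ± 0.16 (adjusted p 0.288), and so did Rbpj, the DNA-binding partner of the Notch intracellular domain (0.26 ± 0.19, adjusted p 0.424). Dtx2, a paralog of Dtx1, had 66.7, 70.3 and 68.2 CPM in KO CD4-CD8- libraries against 35.1, 32.2 and 35.9 in WT. In CD8+ cells Dtx2 had 47.5, 44.0 and 39.9 CPM in KO libraries against 54.7, 50.3 and 54.9 in WT. It rose in CD4-CD8- cells and fell in CD8+ cells, with no overlap of groups in either, and the difference was 1.27 ± 0.10 (adjusted p 4.86e-07), with an adjusted p of 0.0521 on log2(TPM + 0.1) values. Of the genes typical of ESAM-high cDC2, 9 were tested, 2 effects were higher and 2 lower (median -0.56, and 0.02 on log2(TPM + 0.1) values). Within CD4-CD8- cells 8 of the 9 fell and 0 rose (11.3% and 14.6% of all genes did). Within CD8+ cells 6 fell and 0 rose (8.68% and 7.01% of all genes did). The higher call of Clec4a4 held in 7 of 23 alternatives. Esam, the adhesion molecule that names these cells, had 1.54, 1.76 and 1.23 CPM in KO CD4-CD8- libraries against 24.3, 32.02 and 33.4 in WT. In CD8+ cells Esam had 1.37, 2.37 and 2.21 CPM in KO libraries against 9.51, 8.302 and 9.29 in WT. It fell in both populations and further in CD4-CD8- cells, by a difference of -2.11 ± 0.42 (adjusted p 0.003).

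The named genes among the 188 that rose in KO CD4-CD8- cells and fell in KO CD8+ cells encode a nuclear corepressor, surface receptors and secreted proteins, among others. In libraries of sorted bulk cells such as these, fewer cells of a type and less RNA per cell cannot be told apart. Hr, which encodes a nuclear corepressor, had 60.7, 89.4 and 97.7 CPM in KO CD4-CD8- libraries against 4.53, 3.95 and 3.37 in WT. In CD8+ cells Hr had 1.11, 0.697 and 1.69 CPM in KO libraries against 4.62, 2.15 and 6.57 in WT. Neither pair of groups overlapped, and the KO effects of 4.38 ± 0.28 and -1.91 ± 0.38 gave a difference of 6.29 ± 0.46 (adjusted p 4.09e-07). The gene lies on chromosome 14 from 70552212 to 70573548 in GRCm38.

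Ptgir, the receptor for prostacyclin, had 20.1, 27.9 and 32.95 CPM in KO CD4-CD8- libraries against 5.01, 4.02 and 4.92 in WT, and 0.587, 0.279 and 1.23 CPM in KO CD8+ libraries against 2.89, 2.93 and 4.68 in WT (difference 4.82 ± 0.43, adjusted p 2.3e-06). Fcer2a, the low-affinity IgE receptor CD23 and a known ADAM10 substrate, had 15.2, 21.4 and 24.9 CPM in KO CD4-CD8- libraries against 6.71, 5.12 and 7.96 in WT, and 0.261, 0.0697 and 0.5196 CPM in KO CD8+ libraries against 2.07, 1.503 and 2.12 in WT (difference 4.31 ± 0.53, adjusted p 5.2e-05). Both genes had every KO library above every WT library in CD4-CD8- cells and below it in CD8+ cells. Fcer2a also marks B cells, and the 14 tested B cell markers, which contain it, summed to 357 to 442 CPM in KO CD4-CD8-, 388 to 438 in WT CD4-CD8-, 339 to 346 in KO CD8+ and 330.2 to 352 in WT CD8+ libraries. Taken singly, 5 of these markers fell and 2 rose in CD4-CD8- cells (11.3% and 14.6% of all genes did). In CD8+ cells 7 fell and 0 rose (8.68% and 7.01% of all genes did). The part of B cells in the Fcer2a change was not tested. Cldn10, a claudin, had 7.35, 8.29 and 6.897 CPM in KO CD4-CD8- libraries against 1.21, 0.877 and 2.01 in WT and stayed under 1 CPM in both CD8+ groups, where KO libraries held 0.0652, 0.139 and 0.06495 CPM and WT libraries 0.207, 0.859 and 0.68 CPM (difference 5.04 ± 0.68, adjusted p 0.000116). Timp2, an inhibitor of metalloproteinases, averaged 42.7 ± 8.89 CPM in KO and 8.96 ± 1.57 in WT CD4-CD8- cells, and 2.88 ± 0.857 in KO and 11.1 ± 4.04 in WT CD8+ cells (SD, n = 3 each, difference 4.18 ± 0.38, adjusted p 2.98e-06). Angpt1, a ligand of the Tie2 receptor, averaged 8.58 ± 3.04 CPM in KO and 3.16 ± 0.5895 in WT CD4-CD8- cells, and 0.268 ± 0.238 in KO and 1.93 ± 0.752 in WT CD8+ cells (difference 4.25 ± 0.75, adjusted p 0.00114).

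For a further pair of genes a whole group was at 0 counts, so no fold is given. Gm2981 had 40, 0 and 95 counts in KO CD4-CD8- libraries and 0 in all 3 WT CD4-CD8- libraries, and it had 0 in all 3 KO CD8+ libraries against 107, 112 and 23 counts in WT CD8+ libraries (adjusted p of the difference 0.0112). Within KO CD4-CD8- cells 1 library of 3 was thus at 0. Galnt9, which starts mucin-type O-glycans, had 136, 156 and 139 counts in KO CD4-CD8- libraries against 18, 23 and 20 in WT, with 0 in all 3 KO CD8+ libraries and 0, 2 and 1 in WT CD8+ libraries (adjusted p 0.00789). The CD8+ side of Galnt9 rests on 3 counts, and without WT CD8+ library 2 the adjusted p was 0.127. Unlike Gm2981, Galnt9 was not among the genes with called effects of opposite sign.

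**Figure D2:**
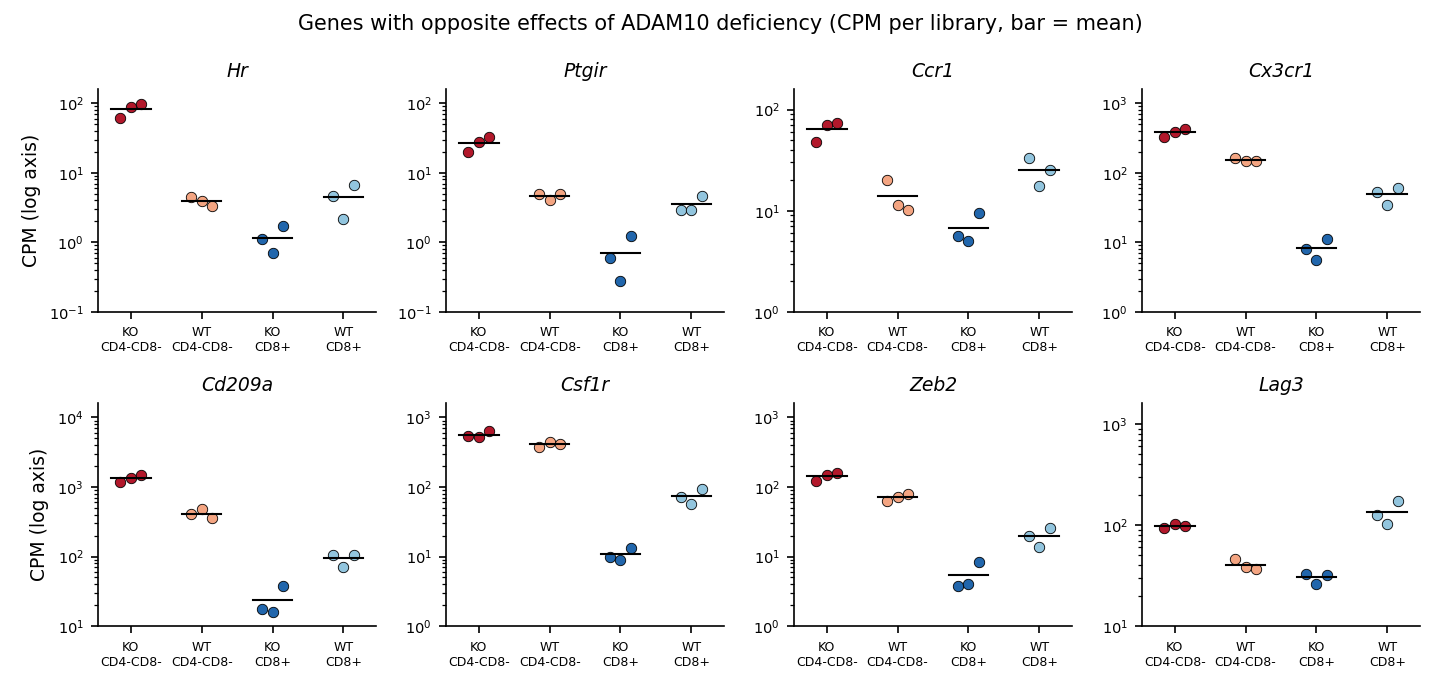
CPM per library on a log axis for 8 genes with called KO effects of opposite sign; points are the 3 libraries of a group and bars the group means. Each gene is higher in KO than in WT CD4-CD8- libraries and lower in KO than in WT CD8+ libraries, with a Csf1r difference of 3.22 and an Hr difference of 6.29 on the log2 scale.

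Genes that mark ESAM-low, monocyte-like cDC2 often had a higher KO effect in CD4-CD8- cells. Of 13 tested, 7 effects were higher (8.24% of all genes were) and 0 were lower, with a median difference of 1.62. Cx3cr1, the fractalkine receptor, had 327, 391 and 432 CPM in KO CD4-CD8- libraries against 162, 145 and 149 in WT, and 7.89, 5.65 and 11.2 CPM in KO CD8+ libraries against 52.6, 34.6 and 60.5 in WT (difference 3.91 ± 0.29, adjusted p 4.09e-07). Csf1r, the receptor for M-CSF, had 536, 528 and 632 CPM in KO CD4-CD8- libraries against 377, 446 and 418 in WT. In CD8+ cells Csf1r had 9.85, 8.99 and 13.4 CPM in KO libraries against 71.8, 56.7 and 92.3 in WT (difference 3.22 ± 0.23, adjusted p 3.15e-07). For both genes the gap between KO and WT was wider in CD8+ cells, -2.57 ± 0.22 for Cx3cr1 and -2.77 ± 0.17 for Csf1r, than in CD4-CD8- cells, where it was 1.33 ± 0.19 and 0.45 ± 0.15. Cd209a, a C-type lectin of the DC-SIGN family, had 1194, 1338 and 1488 CPM in KO CD4-CD8- libraries against 406, 480.5 and 357 in WT. In CD8+ cells Cd209a had 17.8, 15.8 and 38.2 CPM in KO libraries against 106, 71.4 and 104 in WT (difference 3.66 ± 0.36, adjusted p 6.94e-06). Clec10a, a galactose-binding lectin, had 518, 473 and 502 CPM in KO CD4-CD8- libraries against 58.5, 54.6 and 38.8 in WT, and 8.22, 4.32 and 7.47 CPM in KO CD8+ libraries against 14.2, 9.09 and 12.5 in WT (difference 4.13 ± 0.34, adjusted p 8.86e-07). Here most of the difference lay in CD4-CD8- cells, with effects of 3.30 ± 0.23 and -0.84 ± 0.26. Counts of Clec10a and of the Cd209 genes depend on how reads shared with close paralogs were divided.

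Ccr2 and Lyz2 of the same list rose in both populations by amounts whose difference was not called. Ccr2, the receptor for the monocyte chemokine CCL2, had 1186, 1374 and 1287 CPM in KO CD4-CD8- libraries against 332, 329 and 321 in WT, and 616, 672 and 689 CPM in KO CD8+ libraries against 144, 130.4 and 148 in WT (difference -0.26 ± 0.15, 95% interval -0.57 to 0.06, adjusted p 0.304). Lyz2, the lysozyme of myeloid cells, averaged 7718 ± 1379 CPM in KO and 1441 ± 158 in WT CD4-CD8- cells, and 921 ± 97.3 in KO and 162 ± 13.1 in WT CD8+ cells (difference -0.08 ± 0.19, 95% interval -0.48 to 0.32, adjusted p 0.84). Its near-identical copy Lyz1 also rose in both, but further in CD4-CD8- cells, with 875, 1230.2 and 1443 CPM in KO against 42.4, 49.3 and 39.7 in WT CD4-CD8- libraries and 22.4, 29.6 and 30.8 CPM in KO against 6.82, 5.22 and 8.16 in WT CD8+ libraries (difference 2.72 ± 0.26, adjusted p 5.36e-06). How reads were shared between Lyz1 and Lyz2 is a step of the counting that these values depend on.

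Genes of the cDC2 lineage were in sum lower in WT CD8+ than in WT CD4-CD8- libraries, and they often fell in KO CD8+ libraries. Of 16 tested, 9 effects were higher and 0 lower (median 1.12), against 8.24% and 4.92% of all genes. In KO CD8+ cells 10 fell (8.68% of all genes did). In KO CD4-CD8- cells 4 rose and 3 fell (14.6% and 11.3% of all genes did). Irf4, the transcription factor most tied to cDC2, had 118, 128 and 135 CPM in KO CD4-CD8- libraries against 93.95, 90.9 and 108 in WT. In CD8+ cells Irf4 had 8.22, 10.1 and 13.8 CPM in KO libraries against 55.9, 40.4 and 68.98 in WT. The KO effect was 0.38 ± 0.16 (adjusted p 0.102) in CD4-CD8- cells and -2.36 ± 0.19 (adjusted p 3.13e-07) in CD8+ cells, and the difference was 2.74 ± 0.25 (adjusted p 2.85e-06). Sirpa, the CD47 receptor that is the standard surface marker of cDC2, had 816, 716 and 779 CPM in KO CD4-CD8- libraries against 567, 751 and 610.2 in WT, and 17.7, 11.2 and 22.3 CPM in KO CD8+ libraries against 64.96, 61.6 and 87.03 in WT (difference 2.32 ± 0.25, adjusted p 1.52e-05). Zeb2, a repressor with roles in cDC2 and pDC, rose in CD4-CD8- cells, with 120.4, 148 and 157 CPM in KO against 62.1, 71.9 and 80.1 in WT libraries, and fell in CD8+ cells, with 3.72, 3.97 and 8.44 CPM in KO against 19.7, 13.5 and 25.9 in WT libraries (difference 2.86 ± 0.34, adjusted p 4.17e-05). S100a4, a calcium-binding protein of motile cells, averaged 841 ± 99.1 CPM in KO and 662 ± 53.9 in WT CD4-CD8- cells, and 25.6 ± 6.36 in KO and 115 ± 19.4 in WT CD8+ cells (difference 2.51 ± 0.22, adjusted p 2.04e-06).

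The summed level of the 16 cDC2 genes was 3910.2 to 4131 CPM in KO CD4-CD8-, 3603 to 3802 in WT CD4-CD8-, 369.8 to 600.4 in KO CD8+ and 886 to 1195 in WT CD8+ libraries. Among markers of plasmacytoid dendritic cells (pDC), 7 of 12 effects were higher (8.24% of all genes were) and 0 lower (median 1.06). Of these 12 markers, 6 rose and 0 fell in CD4-CD8- cells (14.6% and 11.3% of all genes did). In CD8+ cells 1 of the pDC markers rose and 5 fell (7.01% and 8.68% of all genes did). The pDC marker sum was 879.8 to 1103 CPM in KO CD4-CD8-, 494 to 628 in WT CD4-CD8-, 328 to 448 in KO CD8+ and 536 to 731 in WT CD8+ libraries. Siglech, the receptor that defines mouse pDC, was low, at 18.7, 17.8 and 25.2 CPM in KO CD4-CD8-, 27.2, 17.8 and 18.6 in WT CD4-CD8-, 23.7, 14.4 and 29.03 in KO CD8+ and 49.7, 32.9 and 54.3 in WT CD8+ libraries, and its difference was not called (0.98 ± 0.40, adjusted p 0.126), nor in 22 of 23 alternatives. Spib, an Ets factor of pDC and B cells, had 296, 353 and 328 CPM in KO CD4-CD8- libraries against 155, 155 and 142 in WT, and 21.6, 13.2 and 29.8 CPM in KO CD8+ libraries against 76.7, 61.6 and 89.7 in WT (difference 2.93 ± 0.28, adjusted p 4.25e-06). WT CD8+ library 2 was the lowest of its group for Irf4, Sirpa, Csf1r, Cx3cr1, Spib and Siglech and for both summed lists. The part that cDC2 or pDC within the CD8+ gate have in the falls in KO CD8+ cells was not tested. Nor was the part that pDC within the CD4-CD8- gate have in the rises there.

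**Figure D3:**
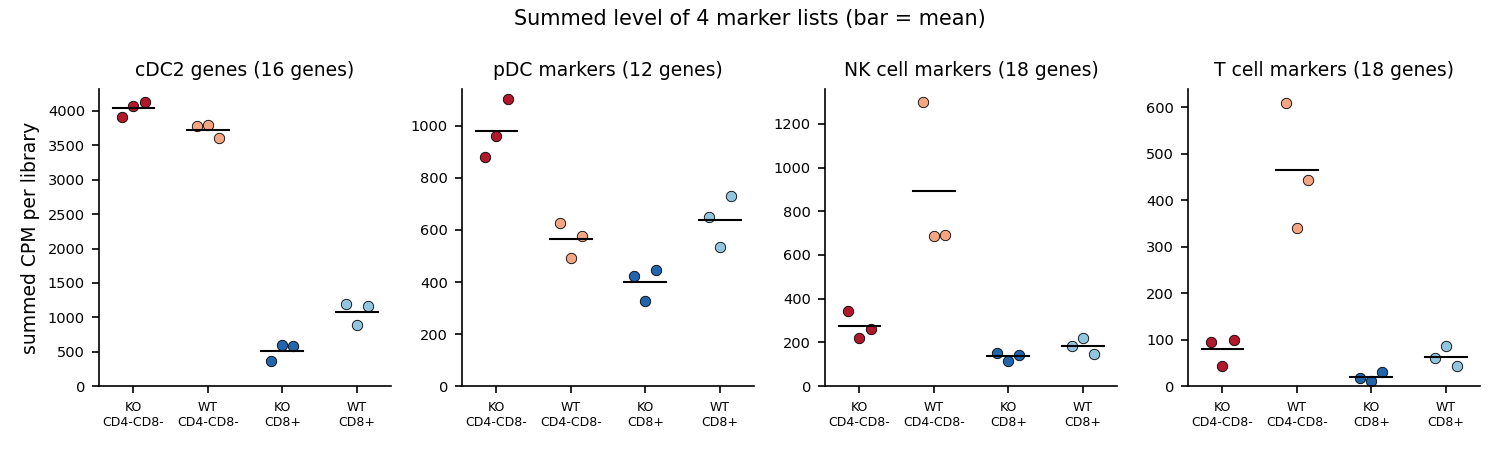
Summed CPM per library of 16 cDC2 genes, 12 pDC markers, 18 NK cell markers and 18 T cell markers in the 4 groups; points are libraries and bars are means. The cDC2 sum is lower in KO than in WT CD8+ libraries and the NK and T cell sums are lower in KO than in WT CD4-CD8- libraries, without overlap.

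Several genes fell only in KO CD8+ cells. Cd33, an inhibitory receptor that binds sialic acid, had 28.5, 43.8 and 51.5 CPM in KO CD4-CD8- libraries against 37.9, 20.3 and 33.5 in WT, which overlapped, and 1.304, 1.25 and 3.38 CPM in KO CD8+ libraries against 35.7, 15.4 and 33.9 in WT, which did not (difference 4.25 ± 0.53, adjusted p 5.26e-05). Cyp7b1, an enzyme of oxysterol breakdown, was low in all groups, with 3.97, 2.07 and 0.996 CPM in KO CD4-CD8- libraries against 1.21, 0.585 and 1.62 in WT, and 0.913, 0.279 and 0.2598 CPM in KO CD8+ libraries against 8.13, 4.58 and 8.69 in WT (difference 4.90 ± 0.95, adjusted p 0.00237). Its CD4-CD8- groups overlapped while its CD8+ groups were apart. Gpr183, the oxysterol receptor that positions cDC2 in the spleen, likewise fell only in CD8+ cells, with means of 88.8 ± 9.62 CPM in KO and 91.4 ± 0.928 in WT CD4-CD8- cells, and 16.1 ± 4.89 in KO and 51.4 ± 12.8 in WT CD8+ cells (difference 1.63 ± 0.26, adjusted p 0.000536). Cd300lb and Sirpb1b, activating receptors of myeloid cells, differed by 3.48 ± 0.50 (adjusted p 0.000206) and 4.16 ± 0.72 (adjusted p 0.000973). In WT CD8+ libraries they reached only 2.69, 2.004 and 4.08 CPM for Cd300lb and 5.24, 1.43 and 2.87 CPM for Sirpb1b, and neither was called on log2(TPM + 1) values (adjusted p 0.0677 and 0.0903).

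A smaller set rose only in KO CD8+ cells. S100a10, the partner of annexin A2, had 104, 80.6 and 97.8 CPM in KO CD4-CD8- libraries against 96.6, 72.96 and 68.7 in WT, and 64.9, 81.9 and 71.5 CPM in KO CD8+ libraries against 14.7, 12.8 and 10.6 in WT (difference -2.27 ± 0.27, adjusted p 3.74e-05). Its KO CD8+ level thus came near the level of both CD4-CD8- groups. Cd226, an activating receptor also known as DNAM-1, had 47.9, 41.9 and 41.2 CPM in KO CD4-CD8- libraries against 60.2, 32.2 and 48.7 in WT, and 33.5, 36.3 and 44.7 CPM in KO CD8+ libraries against 9.64, 7.51 and 4.38 in WT (difference -2.51 ± 0.44, adjusted p 0.00114). Dhrs9, a retinol dehydrogenase, averaged 3.62 ± 1.05 CPM in KO and 3.71 ± 0.412 in WT CD4-CD8- cells, and 13.1 ± 1.06 in KO and 2.95 ± 0.842 in WT CD8+ cells (difference -2.19 ± 0.54, adjusted p 0.0131). The orphan receptor Gpr82 differed by -2.74 ± 0.61 (adjusted p 0.00652). The homeodomain factor Pou6f1, at 4.25 ± 1.52, 6.81 ± 1.36, 4.02 ± 1.71 and 1.62 ± 0.598 CPM in the same order of groups, differed by -1.98 ± 0.54 (adjusted p 0.0227). The Pou6f1 call was lost without KO CD4-CD8- library 2 (adjusted p 0.0525), WT CD8+ library 1 (0.0585) or 3 (0.0617), or KO CD8+ library 3 (0.063), and on TPM values.

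The cDC1 list had calls in both directions, with 2 effects higher and 3 lower among 22 genes (median 0.33). Over all genes 8.24% were higher and 4.92% lower. Within CD4-CD8- cells 12 of the 22 rose and 2 fell (14.6% and 11.3% of all genes did). Within CD8+ cells 6 of the 22 rose and 2 fell (7.01% and 8.68% of all genes did). Their sum was 3104 to 4374 CPM in KO CD4-CD8-, 2647 to 3040.4 in WT CD4-CD8-, 21599 to 21975 in KO CD8+ and 15629.7 to 17919 in WT CD8+ libraries, without overlap of KO and WT in either population. The part of cDC1 within the CD4-CD8- gate was not tested. Btla, an inhibitory receptor, rose only in CD4-CD8- cells, with means of 140.0 ± 9.53 CPM in KO and 72.2 ± 14.1 in WT CD4-CD8- cells, and 394 ± 16.9 in KO and 357 ± 11.5 in WT CD8+ cells (difference 0.81 ± 0.18, adjusted p 0.0069). Cxcr3, the receptor for interferon-induced chemokines, had 23.01, 32.8 and 22.0 CPM in KO CD4-CD8- libraries against 27.9, 20.5 and 16.2 in WT, and 199.6, 171 and 172 CPM in KO CD8+ libraries against 46.98, 70.3 and 49.6 in WT (difference -1.44 ± 0.28, adjusted p 0.00224). Id2, an inhibitor of E proteins that cDC1 require, fell in CD4-CD8- cells, with 135, 185 and 119 CPM in KO against 201, 204 and 194 in WT libraries, and rose in CD8+ cells, with 699, 754 and 623 CPM in KO against 457, 519 and 439.8 in WT libraries. Its effects of -0.45 ± 0.14 and 0.55 ± 0.14 differed at an adjusted p of 0.00233. The lineage factors Irf8 and Batf3 differed by 0.19 ± 0.20 (adjusted p 0.618) and -0.28 ± 0.24 (adjusted p 0.518), which were not called. Cd8a itself fell in KO CD8+ cells (-0.85 ± 0.13, adjusted p 0.000291).

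Several of the largest negative differences were losses called only in CD4-CD8- cells. Cdh17, a cadherin of ESAM-high cDC2, had 0.534, 0 and 0.0766 CPM in KO CD4-CD8- libraries against 11.96, 18.9 and 9.13 in WT. In CD8+ cells Cdh17 had 0.391, 0.697 and 1.56 CPM in KO libraries against 1.17, 0.859 and 1.51 in WT (difference -5.41 ± 0.94, adjusted p 0.000989). Sash1, a signalling adaptor, had 7.41, 9.97 and 8.58 CPM in KO CD4-CD8- libraries against 54.4, 78.7 and 68.2 in WT, and 11.9, 12.4 and 18.4 CPM in KO CD8+ libraries against 10.4, 11.1 and 13.5 in WT (difference -3.25 ± 0.27, adjusted p 1.3e-06). Frmd5, a FERM domain protein, averaged 0.349 ± 0.115 CPM in KO and 9.92 ± 1.35 in WT CD4-CD8- cells, and 2.56 ± 0.5797 in KO and 3.504 ± 0.565 in WT CD8+ cells (difference -4.34 ± 0.35, adjusted p 8.2e-07). For these 3 genes the CD4-CD8- groups were far apart and the CD8+ effects were not called. Ncald, a calcium sensor, differed by -3.04 ± 0.72 (adjusted p 0.00965), but its CD8+ levels were under 2 CPM and the call was lost without KO CD8+ library 2 (adjusted p 0.0824).

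Many lymphocyte markers also fell in KO CD4-CD8- cells. The 18 NK cell markers summed to 222 to 344 CPM in KO CD4-CD8-, 689 to 1300.1 in WT CD4-CD8-, 116 to 154 in KO CD8+ and 146 to 219 in WT CD8+ libraries. The 18 T cell markers summed to 44.04 to 99.9, 341 to 609.7, 11.2 to 30.9 and 43.4 to 87.1 CPM in the same order of groups. In CD4-CD8- cells 15 NK and 18 T cell markers fell (11.3% of all genes did). In CD8+ cells 8 and 4 fell (8.68% of all genes did). But for the difference only 2 NK markers (Klra3, Klre1) and 1 T cell marker (Cd5) were called. All 3 were lower in CD4-CD8- cells (4.92% of all genes were). Sidt1, a putative RNA channel, had 2.31, 0.921 and 2.15 CPM in KO CD4-CD8- libraries against 17.04, 7.68 and 10.9 in WT, and 0.913, 2.16 and 1.82 CPM in KO CD8+ libraries against 0.896, 1.36 and 0.68 in WT (difference -3.44 ± 0.69, adjusted p 0.00298). On log2(TPM + 0.1) values the Sidt1 adjusted p was 0.119. Btbd11 and Rflnb differed by -3.57 ± 0.81 (adjusted p 0.00731) and -3.29 ± 0.72 (adjusted p 0.00603). Sidt1, Btbd11, Rflnb, Klrc2 and the NK sum were all highest in WT CD4-CD8- library 1. Cdh17 and Sash1 were highest in WT CD4-CD8- library 2. The part of NK or T cells in these losses was not tested.

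Of the 10 negative differences named by size, 3 were lost under many alternatives. Klrc2, an NK cell receptor, differed by -3.23 ± 0.99 (adjusted p 0.0404), and the call was lost without WT CD4-CD8- library 1 or 3, KO CD4-CD8- library 2 or 3, WT CD8+ library 2 or 3, or KO CD8+ library 1 or 3 (adjusted p 0.0559 to 0.14). Podnl1, a leucine-rich repeat protein under 0.25 CPM in all CD8+ libraries, differed by -4.80 (95% interval -7.97 to -1.63, adjusted p 0.0441). That call was lost without any 1 of the WT CD4-CD8- libraries, KO CD4-CD8- library 2 or 3, WT CD8+ library 1 or 2, or KO CD8+ library 2 or 3 (0.0555 to 0.375). Hist1h2ap, 1 of many near-identical histone genes, had 2.25, 4.37 and 0 CPM in KO CD4-CD8- libraries against 76.7, 63.4 and 17.1 in WT. In CD8+ cells Hist1h2ap had 90.7, 91.4 and 0 CPM in KO libraries against 0, 8.803 and 26.1 in WT. Its libraries of 1 group ranged from 0 to 91.4 CPM, and its difference of -6.96 ± 2.15 (adjusted p 0.0425) was called in 9 of 23 alternatives.

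Genes of cell division and DNA replication often fell in KO CD4-CD8- cells, and none of those listed was called lower in KO CD8+ cells. Of 33 tested, 24 effects were called lower in CD4-CD8- cells (4.92% of all genes were) and 0 higher, with a median difference of -0.92. Within CD4-CD8- cells 24 fell (11.3% of all genes did) and 0 rose, and within CD8+ cells 6 rose (7.01% of all genes did) and 0 fell. Ccna2, cyclin A2 of S phase and G2, had 20.2, 13.8 and 16.7 CPM in KO CD4-CD8- libraries against 28.3, 29.5 and 34.7 in WT. In CD8+ cells Ccna2 had 44.01, 31.5 and 36.1 CPM in KO libraries against 22.7, 23.9 and 24.6 in WT (difference -1.51 ± 0.28, adjusted p 0.00188). It fell in CD4-CD8- and rose in CD8+ cells, with no overlap of groups in either. Top2a, topoisomerase II, had 50.0, 36.5 and 44.9 CPM in KO CD4-CD8- libraries against 64.9, 91.2 and 88.5 in WT, and 96.4, 76.97 and 109 CPM in KO CD8+ libraries against 56.8, 63.4 and 71.2 in WT (difference -1.46 ± 0.28, adjusted p 0.00233). Rrm2, the small subunit of ribonucleotide reductase, had 27.1, 13.8 and 21.3 CPM in KO CD4-CD8- libraries against 35.7, 50.6 and 44.5 in WT, and 50.3, 39.7 and 56.5 CPM in KO CD8+ libraries against 29.3, 33.2 and 40.9 in WT (difference -1.57 ± 0.33, adjusted p 0.0048). The direction held for these 3 genes under all alternatives, but Rrm2 was not called on TPM values (highest adjusted p 0.079), and only 13 of the 33 genes were called lower there. Mcm3, Mcm5, Mcm6 and Mcm7, subunits of the replicative helicase, fell in CD4-CD8- cells and were not called in CD8+ cells, with differences of -0.55 ± 0.14, -0.56 ± 0.14, -0.81 ± 0.16 and -0.64 ± 0.17 (adjusted p 0.0177, 0.016, 0.00315 and 0.0213). The NK and T cell marker sums given above were lower in the same KO CD4-CD8- libraries, and the part of those cells in the cell cycle genes was not tested.

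**Figure D4:**
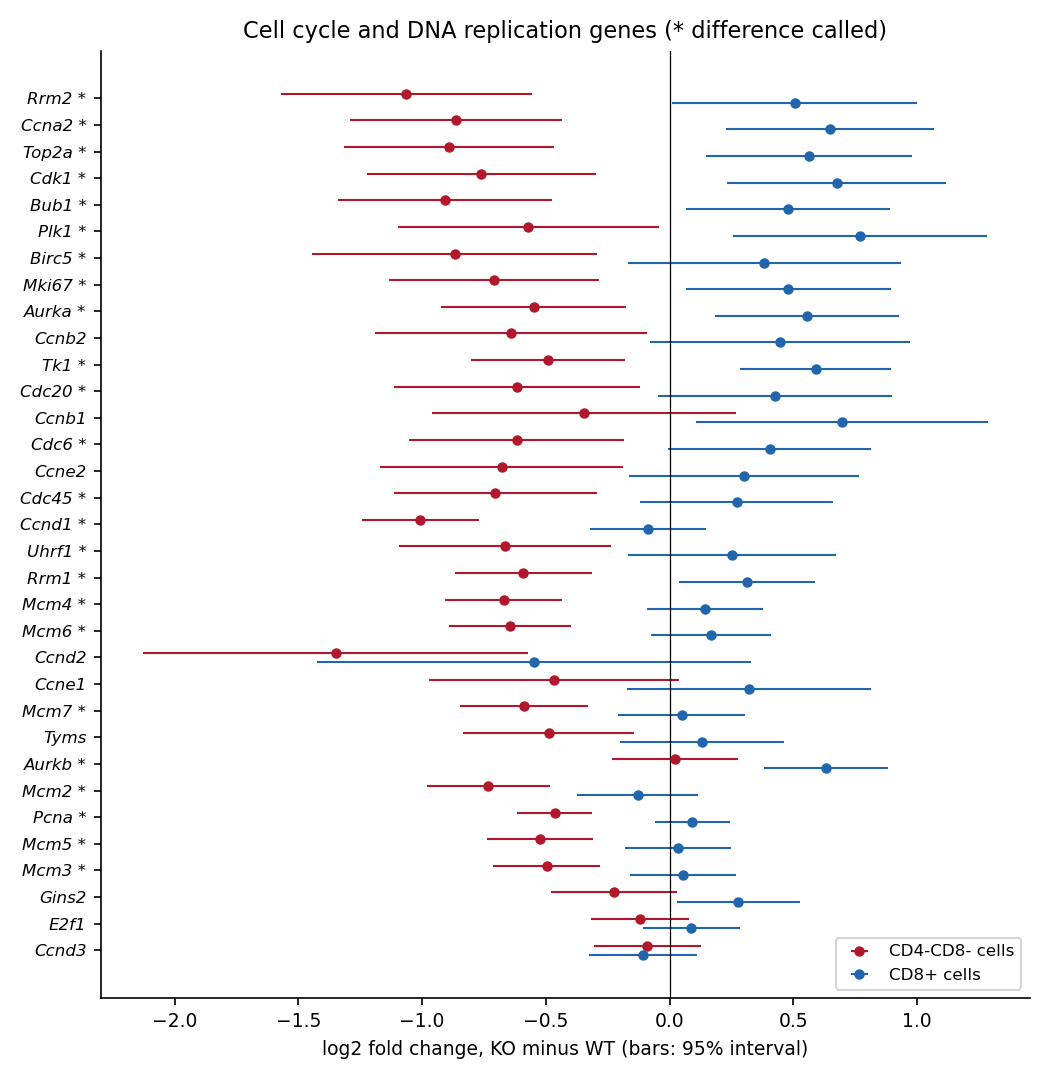
Log2 fold changes (KO minus WT) with 95% intervals of 33 cell cycle and replication genes in CD4-CD8- cells (red) and CD8+ cells (blue), ordered by the size of the difference; stars mark called differences. The fitted change is below 0 in CD4-CD8- cells for 32 of 33 genes and above 0 in CD8+ cells for 29 of 33.

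Promoters of these genes are shown because their expression in S phase is known to be driven by E2F factors, which bind near the start site. The motif TTTGGCGC or TTTCGCGC, searched on both strands and chosen after the values were seen, was present in 6 of 22 promoter windows (27.3%) of the 24 lower genes, of which 20 were in the RefSeq table, against 189 of 12405 windows (1.52%) of the tested genes. Over all 33 listed genes it was present in 6 of 29 windows (20.7%). The windows of Rrm2, Top2a, Pcna and Cdc6 and a second window of Mcm7 held 0 matches, and only windows with a match are printed. Each window is 300 bases long in GRCm38.p6. Capitals mark matches in chr8:75109259-75109558 (plus strand), with 2 matches that overlap on opposite strands, in chr1:128359656-128359955 (minus strand), with 3 matches of which 2 overlap, and in chr5:138171834-138172133 (minus strand), with 1 match.
Mcm5: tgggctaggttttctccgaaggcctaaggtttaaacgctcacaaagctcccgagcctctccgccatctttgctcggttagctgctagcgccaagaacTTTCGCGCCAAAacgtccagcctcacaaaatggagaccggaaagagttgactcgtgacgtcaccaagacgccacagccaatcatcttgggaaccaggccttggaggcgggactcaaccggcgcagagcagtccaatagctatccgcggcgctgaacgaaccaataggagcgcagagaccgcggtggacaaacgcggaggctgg
Mcm6: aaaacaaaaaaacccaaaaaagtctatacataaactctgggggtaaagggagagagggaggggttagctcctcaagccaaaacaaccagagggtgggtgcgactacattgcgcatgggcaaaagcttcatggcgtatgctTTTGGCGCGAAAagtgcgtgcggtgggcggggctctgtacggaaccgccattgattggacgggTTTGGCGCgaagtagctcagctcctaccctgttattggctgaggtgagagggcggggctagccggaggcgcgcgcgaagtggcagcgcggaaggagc
Mcm7: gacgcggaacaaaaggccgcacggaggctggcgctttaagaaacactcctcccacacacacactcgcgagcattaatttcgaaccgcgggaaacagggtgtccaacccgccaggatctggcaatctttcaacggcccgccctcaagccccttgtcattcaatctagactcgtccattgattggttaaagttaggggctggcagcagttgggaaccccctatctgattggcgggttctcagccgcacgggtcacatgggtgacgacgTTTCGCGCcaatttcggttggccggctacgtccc
A match describes the letters only and does not show that a factor binds there. The core motif of RBPJ, TGGGAA on either strand, was planned for the Notch target list. It was in 2 of 6 windows (33.3%) of the tested targets, against 25.6% of all promoter windows. The windows of Dtx1 and Nrarp held 0 matches. The motif was in 46 of 203 windows (22.7%) of genes that rose in KO CD4-CD8- and fell in KO CD8+ cells. It was in 14 of 64 windows (21.9%) of the genes with the reverse pattern, and in 22.9% of the windows of all tested genes.

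For DC maturation and migration genes, each called difference was toward a higher KO effect in CD4-CD8- cells. Of 24 tested, 12 effects were higher and 0 lower (median 0.70), against 8.24% and 4.92% of all genes. In KO CD8+ cells 18 fell (8.68% of all genes did). In KO CD4-CD8- cells 7 fell and 4 rose (11.3% and 14.6% of all genes did). Ccr7, the receptor that guides mature DC to T cell zones, had 243, 394 and 339 CPM in KO CD4-CD8- libraries against 526, 565 and 402 in WT. In CD8+ cells Ccr7 had 165, 138 and 154 CPM in KO libraries against 845, 655 and 586 in WT (difference 1.58 ± 0.31, adjusted p 0.00258). It fell in both, with the wider gap in CD8+ cells. Fscn1, the actin-bundling protein of mature DC, had 301, 257 and 197 CPM in KO CD4-CD8- libraries against 161, 291 and 176 in WT, and 164, 109 and 87.8 CPM in KO CD8+ libraries against 311, 390.2 and 378 in WT (difference 1.84 ± 0.34, adjusted p 0.00164). Il4i1, a secreted amino acid oxidase, rose in CD4-CD8- cells, with 297, 318 and 273 CPM in KO against 178, 209 and 195 in WT libraries, and fell in CD8+ cells, with 47.7, 57.3 and 42.4 CPM in KO against 174, 161 and 187 in WT libraries (difference 2.43 ± 0.15, adjusted p 7.73e-08). Tnfrsf4, the costimulatory receptor OX40, was at 4.08 ± 0.419 CPM in KO and 3.56 ± 0.872 in WT CD4-CD8- cells, and fell to 5.503 ± 1.03 in KO CD8+ cells, against 23.98 ± 2.07 in WT CD8+ cells (difference 2.33 ± 0.26, adjusted p 2.05e-05).

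Differences were called for MHC class II genes and not for class I genes, a contrast between the lists that was not tested. Of 15 tested MHC class II genes 9 effects were higher and 1 lower (median 0.47). Of 17 class I peptide loading genes 0 were called in either direction (median 0.12). Over all genes 8.24% were higher and 4.92% lower. Ctss, the protease that trims the invariant chain, had 2405, 2393 and 2357 CPM in KO CD4-CD8- libraries against 1255, 1391 and 1207 in WT. In CD8+ cells Ctss had 747, 719 and 673 CPM in KO libraries against 809, 717 and 775 in WT (difference 1.00 ± 0.10, adjusted p 8.04e-06). Lgmn, the lysosomal protease legumain, fell in both but further in CD8+ cells, with means of 86.7 ± 4.72 CPM in KO and 122 ± 15.5 in WT CD4-CD8- cells, and 20.1 ± 3.01 in KO and 68.6 ± 7.31 in WT CD8+ cells (difference 1.28 ± 0.19, adjusted p 0.000247). H2-Ob, a subunit of the inhibitor H2-O, was the exception, rising in CD8+ cells alone (difference -0.36 ± 0.11, adjusted p 0.0457). H2-Ab1, the class II beta chain, did not pass (0.45 ± 0.15, adjusted p 0.0524) but was called in 6 of 23 alternatives.

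Receptors for microbes, chemokines and cytokines followed the same direction. The counts here stand beside 8.24% higher and 4.92% lower over all genes. Among 27 C-type lectin receptors 12 effects were higher and 0 lower (median 0.97). Among 24 Toll-like receptors and adaptors 8 were higher and 0 lower (median 0.39). Clec7a, the beta-glucan receptor Dectin-1, fell only in CD8+ cells, with 526 ± 62.6 CPM in KO and 436 ± 68.6 in WT CD4-CD8- cells, and 15.1 ± 5. in KO and 104 ± 26.6 in WT CD8+ cells (difference 3.05 ± 0.33, adjusted p 1.66e-05). Mrc1, the mannose receptor, rose only in CD4-CD8- cells, with 119, 153 and 153 CPM in KO against 11.3, 10.2 and 8.803 in WT libraries, while CD8+ libraries held 2.02, 1.88 and 5.65 CPM in KO and 2.07, 0.859 and 2.64 in WT (difference 3.01 ± 0.59, adjusted p 0.00274). Tlr5, the flagellin receptor, fell in both but further in CD8+ cells (difference 2.08 ± 0.31, adjusted p 0.000309), a difference not called on log2(TPM + 1) values (adjusted p 0.665). Of 20 chemokine receptors 7 effects were higher and 1 lower (median 0.54, and -0.02 on log2(TPM + 1) values). Ccr1, a receptor for inflammatory chemokines, had 48.3, 70.4 and 73.4 CPM in KO CD4-CD8- libraries against 20.2, 11.4 and 10.1 in WT. In CD8+ cells Ccr1 had 5.67, 5.02 and 9.55 CPM in KO libraries against 33.5, 17.5 and 25.2 in WT (difference 4.11 ± 0.45, adjusted p 1.64e-05). Among 19 chemokines 4 effects were higher and 0 lower (median 0.88). Ccl9 averaged 763 ± 126 CPM in KO and 144 ± 14.8 in WT CD4-CD8- cells, and 7.74 ± 2.09 in KO and 10.3 ± 4.66 in WT CD8+ cells (difference 2.81 ± 0.35, adjusted p 5.03e-05). Among 20 cytokines and mediators 7 effects were higher and 0 lower (median 0.52), with Tnfsf9, the ligand of 4-1BB, at 2.35 ± 0.33 (adjusted p 0.000189) and Ptgs2, the inducible cyclooxygenase, at 2.12 ± 0.32 (adjusted p 0.000359).

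Other proteases and known ADAM10 substrates also differed. Among 17 tested ADAM proteases and tetraspanin partners 10 effects were higher and 1 lower (median 0.46). Among 24 reported ADAM10 substrates 9 were higher and 2 lower (median 0.72). Over all genes 8.24% were higher and 4.92% lower. Adam17, the sheddase closest to ADAM10, averaged 144 ± 3.92 CPM in KO and 117 ± 7.58 in WT CD4-CD8- cells, and 94.2 ± 11.7 in KO and 105 ± 1.64 in WT CD8+ cells (difference 0.46 ± 0.12, adjusted p 0.0154). Lag3, an inhibitory receptor that ADAM10 sheds, had 93.2, 102 and 97.02 CPM in KO CD4-CD8- libraries against 46.5, 38.7 and 36.6 in WT. In CD8+ cells Lag3 had 32.6, 26.1 and 32.2 CPM in KO libraries against 124, 102 and 172 in WT (difference 3.39 ± 0.22, adjusted p 1.2e-07). KO libraries were thus the higher ones in CD4-CD8- cells and the lower ones in CD8+ cells. Havcr2, the receptor TIM-3, fell in both and further in CD4-CD8- cells (difference -1.09 ± 0.18, adjusted p 0.000615). Among 24 growth factor receptors 8 effects were higher and 3 lower (median 0.40), and Kit, the receptor for stem cell factor, was among the lower ones at -0.65 ± 0.16 (adjusted p 0.0114).

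**Figure D5:**
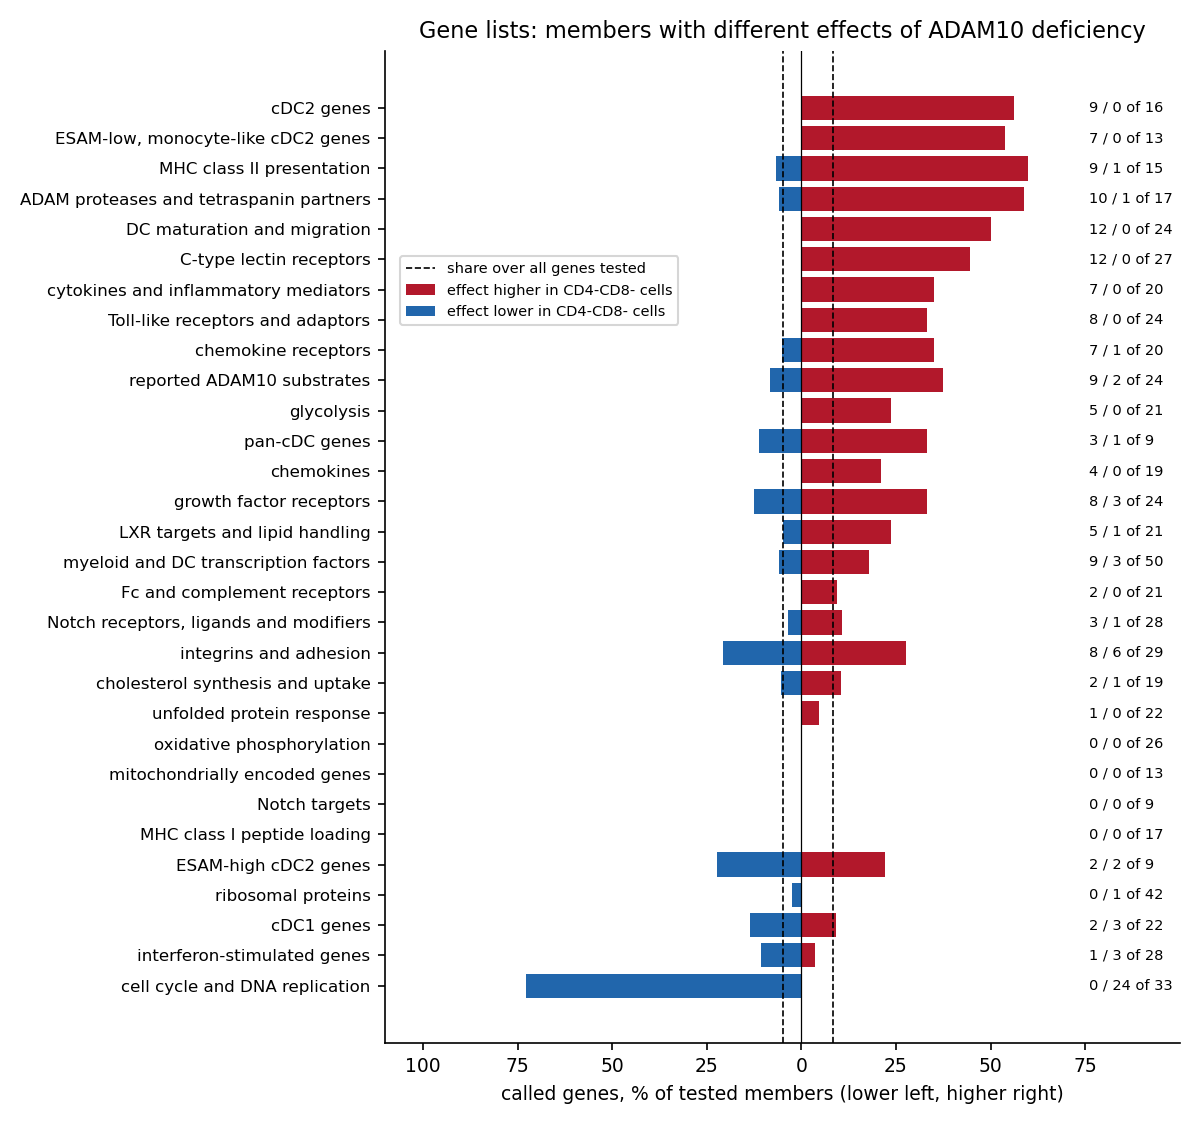
Share of tested members called for the difference in each of 30 gene lists, with lower effects in CD4-CD8- cells to the left and higher ones to the right; dashed lines mark the shares over all genes (4.92% lower, 8.24% higher) and the figures at the right give higher and lower counts of the members tested. The cell cycle list holds the longest bar to the left, with 24 of 33 members.

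For the remaining lists, the counts stand beside 8.24% higher and 4.92% lower over all genes. Of 50 transcription factors 9 effects were higher and 3 lower (median 0.15), of 29 integrins and adhesion genes 8 and 6 (0.13), of 21 LXR targets and lipid handling genes 5 and 1 (0.32), of 21 glycolysis genes 5 and 0 (0.23), and of 9 pan-cDC genes 3 and 1 (0.24). Fc and complement receptors had 2 higher and 0 lower of 21 (0.40), cholesterol synthesis 2 and 1 of 19 (0.08), interferon-stimulated genes 1 and 3 of 28 (-0.17) and the unfolded protein response 1 and 0 of 22 (0.37). Lpl, the lipoprotein lipase of the lipid list, had 151, 257 and 372 CPM in KO CD4-CD8- libraries against 9.73, 12.2 and 10.6 in WT, and 2.74, 1.67 and 3.96 CPM in KO CD8+ libraries against 0.413, 1.07 and 1.51 in WT (difference 3.08 ± 0.68, adjusted p 0.00592, lost without WT CD8+ library 3 at adjusted p 0.0548). Ribosomal protein genes rose alike, 38 of 42 in CD4-CD8- cells (14.6% of all genes did) and 32 in CD8+ cells (7.01% did). For the difference 0 of them were higher and 1 was lower, and 0 of 26 oxidative phosphorylation genes and 0 of 13 mitochondrially encoded genes were called. By edgeR's test at an unadjusted p, 3427 of all genes were under 0.05 for the difference.

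Markers of other cells that the gates could hold were compared in the same way. Among 17 tested monocyte markers 7 effects were higher and 1 lower, and among 15 red pulp macrophage markers 3 and 0. Over all genes 8.24% were higher and 4.92% lower. Within CD4-CD8- cells 7 monocyte markers rose and 4 fell (median 0.35, with 14.6% and 11.3% over all genes). Within CD8+ cells 2 rose and 6 fell (median -0.35, with 7.01% and 8.68% over all genes). Fn1, which encodes fibronectin, had 122, 251 and 329 CPM in KO CD4-CD8- libraries against 8.28, 8.55 and 12.6 in WT, and 0.913, 0.767 and 2.34 CPM in KO CD8+ libraries against 1.38, 0.787 and 0.756 in WT (difference 4.11 ± 0.99, adjusted p 0.0105, lost without WT CD8+ library 1 at adjusted p 0.0786). Monocyte markers summed to 10762 to 13991 CPM in KO CD4-CD8-, 5172 to 5411 in WT CD4-CD8-, 2366 to 3109 in KO CD8+ and 2019 to 2518 in WT CD8+ libraries. Lyz2, whose levels are given above, is among these markers and made up most of the KO CD4-CD8- sum. B cell markers had 3 higher and 0 lower of 14, plasma cell markers 1 and 0 of 7, and stromal and endothelial markers 3 and 1 of 5. Marginal zone macrophages, neutrophils, erythroid cells and platelets had 0 called of 4, 4, 7 and 3 tested markers, and mast cells and basophils 1 lower of 1. The part of these cells in the differences was not tested.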

How the data were processed

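Poly(A) RNA of sorted spleen dendritic cells was sequenced with single-end reads, per the labels. The authors deposited, for each library, an estimated count and a TPM value (transcript abundance scaled to a fixed total) per transcript. Quality control with FastQC 0.11.8, quantification with Salmon 0.14.1 and the build GRCm38 are named in the submitters' processing notes. Whether the reads were assigned by strand is not given in the sources used here, so overlapping and antisense genes are uncertain, as are close paralogs.

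Estimated counts were summed per gene with the gene identifiers that the authors deposited beside the TPM values, and rounded to whole numbers. The GENCODE M21 annotation filled in the gene for 37 of 152 transcripts that had none and gave the gene positions. At most 0.160% of the counts of a library had no gene and were left out, and 13381 of 24614 genes passed edgeR's filter on low counts. All 18 libraries (12358884 to 19557469 counts) were fitted with edgeR 4.0.16 (quasi-likelihood, TMM scaling, R 4.3.3), with 1 mean for each of the 6 groups and 12 residual degrees of freedom. The contrast was (KO CD4-CD8- minus WT CD4-CD8-) minus (KO CD8+ minus WT CD8+). P-values are 2-sided and Benjamini-Hochberg adjusted over all genes tested, with calls under 0.05. Intervals are approximate 95% intervals, built from standard errors back-calculated from the fold change and the F statistic. The script was tested on simulated data.

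Alternatives were DESeq2 1.42.0, other scalings and filters, the 12 libraries only, replicate blocks, limma 3.58.1 on log2(TPM + 1) and log2(TPM + 0.1), and leaving out each library. A block within genotype and TMM-scaled TPM values were added after seeing the data. Named genes were Adam10, the 10 largest differences in each direction with at least 5 CPM in the highest group and groups that do not overlap in at least 1 population, the 5 largest of 3 classes, and members of 30 gene lists and 13 marker lists. List members named beyond the 3 called members with the largest difference were chosen after their values were seen. A gene that the rule names is not reported here. The members and lists were chosen with earlier results of these data known. Promoter sequences are from RefSeq (GRCm38.p6).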

Additional observations from a re-analysis of the deposited data

Results flagged for a closer look

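The KO effect differed between CD4-CD8- and CD8+ cells for 1761 genes by edgeR's quasi-likelihood test of the difference itself, and 249 of them had called effects of opposite sign. Among the genes named, 5 of these opposite differences were the largest. They were Hr at 6.29, Cldn10 at 5.04, Ptgir at 4.82 and Fcer2a at 4.31 on the log2 scale, and Gm2981, whose fitted value of 18.08 comes from groups at 0 counts, depends on the prior count and is no bound.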

How the results depend on the processing

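On log2(TPM + 1) values limma called 1167 genes for the difference, 503 of them higher. On log2(TPM + 0.1) values it called 971, 469 higher, and on TMM-scaled TPM values 674 were higher. For the KO effect in CD4-CD8- cells, library totals gave 1030 higher and 3604 lower genes, log2(TPM + 1) gave 605 and 2975, and log2(TPM + 0.1) gave 558 and 2819. For the KO effect in CD8+ cells, library totals gave 543 and 1886, the TPM scales gave 264 (pseudocount 1) and 265 (0.1) higher genes, and TMM-scaled TPM gave 1320 genes, 624 higher and 696 lower. The cause was not tested. Other scalings and filters kept every count within 1.5 times. Leaving out 1 library gave 1346 to 1735 genes for the difference (846 to 1104 higher, 454 to 631 lower), 2683 to 3635 for the KO effect in CD4-CD8- cells (1413 to 2031 higher, 1169 to 1639 lower) and 1541 to 2104 for that in CD8+ cells (639 to 928 higher, 902 to 1178 lower).

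Of 4493 values of 196 named genes, 4155 stayed on the same side of the threshold, 251 lost and 80 gained the call, and 7 changed sign with a call in at least 1 of the 2 fits. Among the 4155, 106 changed sign with no call in either fit, Adam10 included. The 7 arose on TPM scales. On log2(TPM + 1), plain and TMM-scaled, these were Tcf7 (-1.08 and -0.91), Sel1l (-0.24 and -0.17) and Clec4a4 (-0.46 and -0.26), and Sel1l was at -0.26 on log2(TPM + 0.1).

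Libraries with the same number in both genotypes were not paired by the labels, and deviations of same-numbered libraries of 1 genotype correlated at 0.054 to 0.262, with 12 of 18 pairs over 0.1. With the replicate number as a block, 1244 genes were higher and 741 lower for the difference, and with a replicate block within genotype 1393 and 876. Between CD4-CD8- and CD8+ cells of 1 genotype, each library correlated best with its own number, a hint from the data and not from the design. Among genes named in the report, both blocks gained calls for Myc (adjusted p 0.0493 and 0.0394) and H2-Ab1 (0.0182 and 0.0121). The block by number lost Hist1h2ap (0.0601) and Clec4a4. The block within genotype gained Siglech (0.0159) and lost Podnl1 (0.056).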
